A study of Mus musculus with 14 samples.

Results

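Macrophages stimulated with LPS were compared with and without GW7845, a synthetic agonist of the nuclear receptor PPARγ. The comparison rests on 4 of the 14 microarrays of the series: those titled GW7845 + LPS, with the numbers 1 and 2, and those titled LPS, with the numbers 1 and 2. All probes of the deposited value table were used, of which 9486 of 10012 entered the test. The cells of every group were macrophages that thioglycollate, an irritant broth, had drawn into the peritoneum of female C57BL/6 mice aged 6 weeks. The LPS arrays hold cells given lipopolysaccharide, the bacterial wall component that TLR4 detects, and the GW7845 + LPS arrays hold cells given both agents. A further 4 groups of 2 arrays were drawn on where stated: untreated cells, cells given poly(I:C) (a double-stranded RNA made in vitro that mimics a virus and acts on TLR3) with or without GW7845, and cells given LPS with GW3965, which activates the liver X receptors (LXRs). The remaining group, GW3965 with poly(I:C), entered the fit only. No group received GW7845 without a stimulus, and neither the dose of any agent nor the time of harvest is given in the sources used here. The series text speaks of 2 biological replicates for each condition without saying what made up a replicate. The p-values below therefore rest on a spread between preparations of unstated make-up. That spread was pooled over all 14 arrays, after shifts shared by an array set (described below) had been removed.

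PPARγ is a lipid-activated transcription factor that pairs with a retinoid X receptor on DNA and switches on genes of fatty acid uptake, binding and storage. In macrophages its ligands are also known to lower part of the inflammatory response to Toll-like receptor signals, an action called transrepression that does not need PPARγ to bind its own DNA element at the repressed gene. The series title places this repression, and that by the LXRs, at the centre of the study.

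The arrays were split into 2 sets of 7, with 1 array of each group in each set. The set was read from the 10th percentile of an array's intensity, which lay above 0.1 in set A (lowest 0.137) and below it in set B (highest 0.0833), and no label names it. GW7845 + LPS 2 and LPS 1 belong to set A, and GW7845 + LPS 1 and LPS 2 to set B, so the title numbers cross the sets. Differences were therefore taken within sets. Levels below are log2 intensities, differences are log2 differences with the standard error (SE) of the fit, and each group has n = 2 arrays. Levels are given in the order set A, set B. A level of one probe was not set against that of another, since brightness differs between probes. The cells carried macrophage transcripts on all 4 arrays: the lysozyme gene Lyz2 was at 10.05 to 10.92, the LPS co-receptor gene Cd14 at 8.37 to 9.30 and Adgre1, which encodes the F4/80 antigen, at 1.85 to 3.13.

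No probe passed the test in the comparison of GW7845 + LPS with LPS. In limma, 0 of 9486 probes (0%) had an adjusted p under 0.05, and the smallest adjusted p was 0.088. At an unadjusted p under 0.05 there were 566 probes (5.97%), where 474 are expected without any difference. Of these, 367 (3.87%) were lower with GW7845 and 199 (2.10%) were higher. Without LPS 1 that count was 241 and without GW7845 + LPS 2 it was 296, with 2 and 3 probes called, and without GW7845 + LPS 1 it was 880 with 0 called. In all, 460 probes differed by at least 2-fold, 210 higher and 250 lower, and the median SE over probes was 0.39. Across all probes tested, the differences in set A and in set B had a correlation (Pearson's r across probes, which are not independent replicates) of 0.04, and of 0.12 over the 4937 probes with a mean log2 level above 0. The same description gave 0.94 for LPS against untreated cells over those brighter probes. Genes are therefore named below by their place in the order of p, as not called, and no gene is said to have risen or fallen in this comparison.

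One feature of the arrays touches most of the values that follow. Bright probes read lower with GW7845, chiefly in set A. Among the 896 probes with a mean level between 4 and 6 the median difference was -0.33 in set A and -0.08 in set B, and among the 75 probes above 8 it was -0.64 and -0.01. Probes below -2 had a median of 0.11 in set A and 0.00 in set B. The 90th percentile of intensity was 28.2 on the LPS array and 23.7 on the GW7845 + LPS array of set A, against 22.4 and 20.2 in set B. With GW3965 + LPS it was 23.1 in set A and 21.8 in set B. Under poly(I:C) it was 30.9 without and 29.9 with GW7845 in set A, and 23.8 on both arrays of set B. After quantile normalization, which gives all arrays the same distribution, the class medians lay between -0.02 and 0.03. Values after that normalization are therefore given beside the medians of gene lists, and whether the shift belongs to the treatment or to the arrays cannot be told apart.

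**Figure D1:**
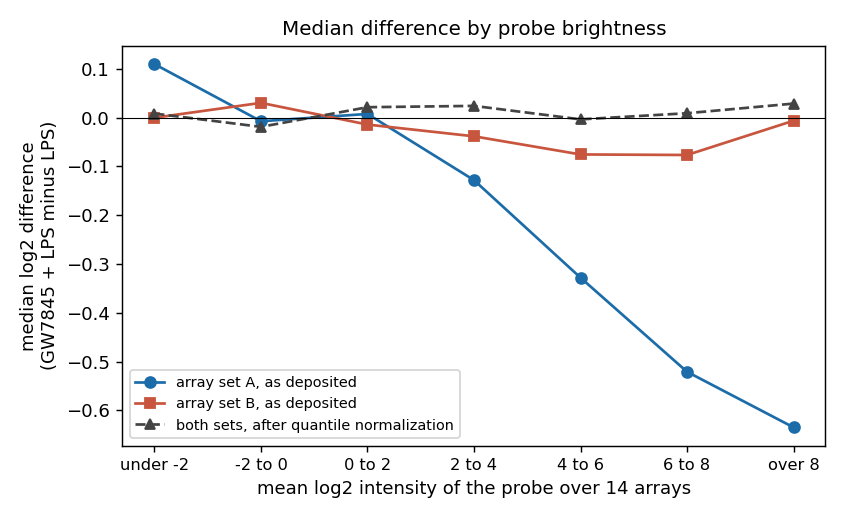
Median log2 difference between GW7845 + LPS and LPS (vertical axis) for probes grouped by their mean log2 intensity over 14 arrays (horizontal axis), for array set A, array set B and both sets after quantile normalization. The set A line goes down from 0.11 for the dimmest probes to -0.64 for the brightest, the set B line stays between -0.08 and 0.03, and the quantile-normalized line stays near 0.

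By the rule of choice (1 gene symbol, the same direction in both sets, no array of the 4 at the floor, in order of p), 24 genes were named, 19 lower and 5 higher with GW7845. Their p-values ran from 7.5e-05 to 0.0015 and their adjusted p-values from 0.24 to 0.47. In all 24 the 2 arrays of one group lay beyond the 2 of the other, as they did for 20.1% of all probes (9.02% higher and 11.1% lower). The genes were chosen by p on the same arrays, so this separation, also where given for single genes below, follows in part from the choice. The same sign in both sets, which the rule asked for, was found in 50.4% of all probes, 28.2% lower and 22.1% higher. Of the 24 genes, limma called 14 higher and 2 lower in LPS than in untreated cells. Over all probes these calls made up 9.64% and 8.21% (17.8% together), but the 24 were chosen by their difference from the same LPS arrays, so the count is a description and nothing is read from it.

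**Figure D2:**
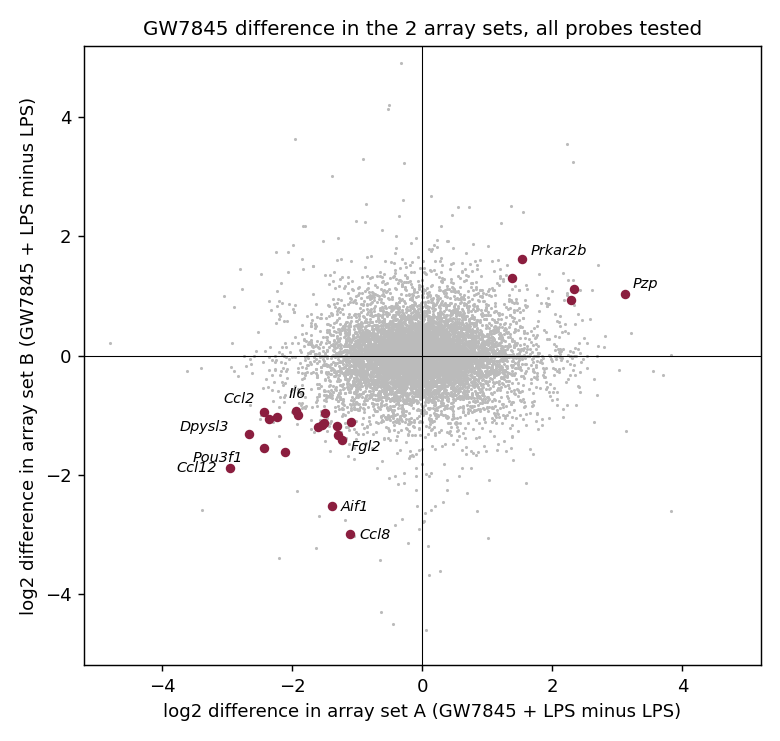
Log2 difference between GW7845 + LPS and LPS in array set A (horizontal axis) against that in array set B (vertical axis) for all 9486 probes tested (grey), with the 24 named genes in red. The grey cloud has no slope to speak of (correlation 0.04), and the named genes lie in the quadrants where both sets have the same sign because the rule asked for that; 1 probe lies outside the axes.

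Chemokines, the secreted proteins that draw leukocytes into inflamed tissue, made up 4 of the 24. Ccl12, a monocyte attractant, was at 4.70 and 3.0 on the LPS arrays, at 1.74 and 1.11 with GW7845 and at -1.95 and -2.89 in untreated cells. Both GW7845 arrays lay below both LPS arrays and above both untreated arrays. The difference was -2.42 (SE 0.49, adjusted p = 0.28), a 5.37-fold lower level. Ccl2, the main attractant of inflammatory monocytes, was at 9.99 and 8.85 with LPS and at 7.55 and 7.91 with GW7845. Its groups did not overlap either, but the set A difference (-2.44) was larger than that of set B (-0.94), and the fitted value was -1.69 (SE 0.35, adjusted p = 0.28). Cxcl9, an interferon-induced attractant of T cells, was at 3.74 and 3.69 with LPS and at 2.20 and 2.52 with GW7845, a difference of -1.36 (SE 0.31, adjusted p = 0.41). Here the sets were alike, with -1.55 and -1.17. Ccl8, a further monocyte attractant, differed by -2.05 (SE 0.50), with -1.11 in set A and -2.99 in set B.

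Of the 26 chemokines listed, 23 were tested. Their median difference was -0.78, where that of all probes was -0.04, and 19 of 23 were below 0, as were 53.4% of all probes. At an unadjusted p under 0.05, 11 of 23 were lower and 1 was higher, beside 3.87% and 2.10% of all probes, and none passed after adjustment. After quantile normalization the median was -0.53, with 18 of 23 below 0. Without LPS 1, and likewise without GW7845 + LPS 2, 7 of 23 were lower at that p. Ccl7, which binds the same receptor as Ccl2, had a difference of -1.28 (SE 0.36) and Cxcl10, an interferon-induced chemokine, one of -1.35 (SE 0.38). Ccl24, an eosinophil attractant, differed by -1.34 (SE 0.38). Ccl5, a chemokine of late activation, was at 11.14 and 10.18 against 10.43 and 10.12, so the groups overlapped, with a difference of -0.38 (SE 0.33). Cxcl1, a neutrophil attractant, differed by -2.35 in set A and 0.15 in set B. The member higher with GW7845 at an unadjusted p under 0.05 was Ccl9, a chemokine of myeloid cells, at 9.16 and 8.60 with LPS and 9.92 and 9.25 with GW7845 (difference 0.71, SE 0.26, adjusted p = 0.81).

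Among cytokines, Il15, Il6 and Il10 were among the 24. Il6, which drives the acute phase response, was at 9.13 and 8.17 with LPS, at 7.18 and 7.24 with GW7845 and at -1.66 and -2.80 in untreated cells. Both GW7845 arrays lay below both LPS arrays yet far above the untreated ones. The difference was -1.44 (SE 0.33, adjusted p = 0.41), or 2.70-fold lower, against a difference of 10.88 (SE 0.33) between LPS and untreated cells. Il15, which sustains natural killer and memory T cells, was the most even: its difference was -1.29 in set A and -1.33 in set B, from levels of 5.60 and 4.71 to 4.30 and 3.38. Il10, the anti-inflammatory cytokine, was at 1.22 and 0.21 with LPS and at -0.30 and -0.92 with GW7845 (difference -1.33, SE 0.31), with both GW7845 arrays below both LPS arrays.

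Other cytokines of the list showed small or uneven differences. Tnf, an early inflammatory cytokine, was at 6.78 and 7.22 with LPS and at 6.76 and 6.60 with GW7845, a difference of -0.32 (SE 0.33, 95% interval -1.03 to 0.39). Il1b, which encodes interleukin-1β, differed by -0.30 (SE 0.59), with -0.60 in set A and 0.01 in set B. Il12a, a subunit of interleukin-12, was at 7.87 and 6.86 against 6.60 and 6.36, a difference of -0.88 (SE 0.30, adjusted p = 0.72). Over the 15 cytokines tested the median was -0.30 and 13 were below 0, but after quantile normalization 9 were, with a median of -0.24. At an unadjusted p under 0.05, 5 of 15 were lower and 0 higher under either scaling, again with none called by limma. Of all probes, 53.4% were below 0, and 3.87% were lower and 2.10% higher at that p.

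**Figure D3:**
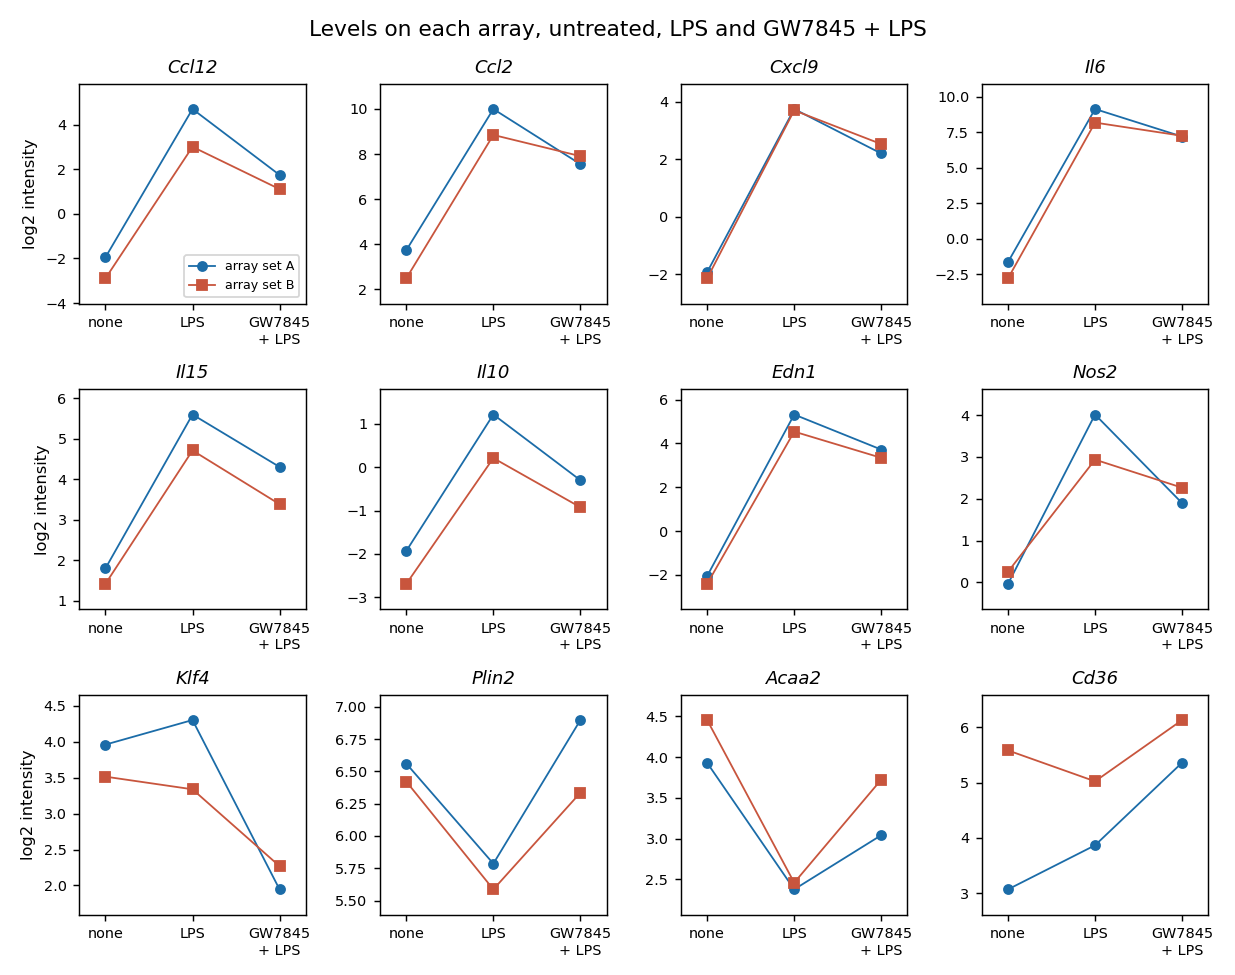
Log2 intensity (vertical axes) of 12 genes on the untreated, LPS and GW7845 + LPS arrays (horizontal axis), 1 line for each array set. For Ccl12, Ccl2, Cxcl9, Il6, Il15, Il10, Edn1 and Nos2 the GW7845 + LPS points lie between the untreated and the LPS points in both sets, Klf4 lies below both, and Plin2, Acaa2 and Cd36 lie above LPS.

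The list of genes known from the literature for repression by PPARγ ligands held 20 genes, of which 17 were tested. It overlaps the chemokine, cytokine and effector lists. Of all probes, 53.4% were below 0 (49.2% after quantile normalization) and 3.87% were lower at an unadjusted p under 0.05. The list's median level with LPS was 7.36, and 83.8% of the 327 probes with a mean level between 6 and 8 were below 0. In the list the median difference was -0.83, with 16 of 17 below 0 and 9 of 17 lower at that p. After quantile normalization these were -0.54, 13 and 7, and without LPS 1 they were -0.62, 15 and 4. Nos2, the inducible nitric oxide synthase and the classic gene repressed by PPARγ ligands, was at 4.01 and 2.94 with LPS, at 1.90 and 2.27 with GW7845 and at -0.03 and 0.26 in untreated cells. Its difference was -1.39 (SE 0.36, adjusted p = 0.51), with groups that did not overlap and a larger value in set A (-2.12) than in set B (-0.67). Edn1, which encodes the vasoconstrictor endothelin-1, was at 5.32 and 4.54 with LPS and at 3.72 and 3.34 with GW7845 (difference -1.40, SE 0.33). Ptgs2, the cyclooxygenase induced in inflammation, differed by -0.62 (SE 0.68). The matrix protease gene Mmp9 and the scavenger receptor gene Msr1 differed by -0.07 (SE 0.47) and -0.19 (SE 0.24), and both values were above 0 after quantile normalization (0.01 and 0.09).

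Promoter sequence is shown for Il6, one of the 24 genes, and for Cxcl10, because both are textbook targets of NF-κB, the factor on which transrepression is thought to act. The 250 bases before the RefSeq start are printed 5′ to 3′ on the gene's strand from GRCm38.p6, Il6 at chr5:30012864-30013113 on the plus strand and Cxcl10 at chr5:92348890-92349139 on the minus strand, with matches to the NF-κB consensus in capitals.
Il6: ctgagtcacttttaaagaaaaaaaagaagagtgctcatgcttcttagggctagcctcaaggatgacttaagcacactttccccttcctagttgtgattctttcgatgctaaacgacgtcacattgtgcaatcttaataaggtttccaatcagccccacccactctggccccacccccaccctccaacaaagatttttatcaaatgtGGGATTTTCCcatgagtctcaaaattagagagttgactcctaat
Cxcl10: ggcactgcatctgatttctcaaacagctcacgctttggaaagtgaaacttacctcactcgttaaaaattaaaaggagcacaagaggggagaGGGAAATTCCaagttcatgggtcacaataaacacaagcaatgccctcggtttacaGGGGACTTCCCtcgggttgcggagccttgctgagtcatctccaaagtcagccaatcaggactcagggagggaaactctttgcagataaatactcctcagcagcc
The Il6 match begins 44 bases before the start. Those of Cxcl10 begin 159, 104 and 103 bases before it, and the last of these overlap each other. RefSeq windows were found for 18 of the 24 named genes. Searched on both strands in windows of 300 bases, from 250 before to 50 after the start, the NF-κB consensus occurred in 2 of these 18 (Il6 and Basp1) and in 8.2% of all 27025 windows. The direct repeat to which PPARγ and its partner bind (AGGTCA, any base, AGGTCA) occurred in 0 of 18 and in 0.044% of all windows. TGANTCA, the element of the factor AP-1, occurred in 3 of 18 against 7.9%, and an interferon response element (GAAA, any pair of bases, GAAA) in 3 of 18 against 3.5%. These are matches of letters in a window, and neither binding nor use was measured.

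Genes of antigen presentation, which load peptides onto major histocompatibility complex (MHC) molecules or give the signals that go with them, all read lower. Of 23 listed, 19 were tested, and all 19 had a difference below 0, with a median of -0.67. At an unadjusted p under 0.05, 10 were lower. Of all probes, 53.4% were below 0 (49.2% after quantile normalization) and 3.87% were lower at that p. The list is bright, with a median level of 6.5 with LPS. Among the 327 probes with a mean level between 6 and 8, 83.8% were below 0. With no array-set block 2 of 19 were lower at that p, and with a block by title number 3 were. After quantile normalization the list's median was -0.50, with 18 of 19 below 0 and 4 at that p. Without LPS 1 the median was -0.57 with 1 of 19 at that p, and without GW7845 + LPS 2 it was -0.61 with 3. Ciita, the master regulator of MHC class II, was at 2.16 and 1.75 with LPS and 0.96 and 0.93 with GW7845 (difference -1.01, SE 0.31). Its groups did not overlap, and both GW7845 arrays were also below the untreated ones, at 1.47 and 1.11. The class II gene H2-Eb1 differed by -0.93 (SE 0.40), the costimulatory receptor genes Cd40 by -0.94 (SE 0.28) and Cd86 by -0.73 (SE 0.29), and B2m, the class I light chain, by -0.77 (SE 0.31). For B2m, a bright probe, the value after quantile normalization was -0.33.

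Interferon-stimulated genes were less even. Of 26 tested, 20 were below 0 with a median of -0.27, and 5 were lower at an unadjusted p under 0.05. Of all probes, 53.4% were below 0 and 3.87% were lower at that p. The list's median level with LPS was 6.06. Among probes with a mean level between 4 and 6, 75.8% were below 0, and between 6 and 8, 83.8% were. After quantile normalization the list's median was -0.05, with 14 of 26 below 0 and 1 at that p. Without GW7845 + LPS 1 there were 2 at that p, and without LPS 2 there were 3. Isg20, an antiviral exonuclease, was at 7.40 and 6.84 with LPS and at 6.05 and 5.98 with GW7845 (difference -1.10, SE 0.29), and Mx1, an antiviral GTPase, differed by -0.80 (SE 0.26). Ifit3, which binds viral RNA in a complex, differed by -0.29 in set A and -2.15 in set B. Its partner Ifit1 was at 7.28 and 7.69 against 7.67 and 7.18, a difference of -0.06 (SE 0.38).

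The machinery that senses LPS was read too. As above, 53.4% of all probes were below 0 and 3.87% were lower at an unadjusted p under 0.05. Of 22 genes of the Toll-like receptor pathway tested, 18 were below 0 (median -0.18), and 3 were lower at an unadjusted p under 0.05. After quantile normalization 13 were below 0 (median -0.12) with 2 at that p, and without LPS 1 or without GW7845 + LPS 2 there was 1. Ly96 encodes MD-2, the part of the TLR4 complex that holds LPS, and was at 6.21 and 4.11 with LPS and at 4.61 and 3.43 with GW7845 (difference -1.14, SE 0.43). Its relative Ly86, the partner of the receptor CD180, was at 5.87 and 4.91 against 4.23 and 4.14 (difference -1.20, SE 0.32), with values of -1.64 and -0.77 in the sets. The third was Tlr1, a partner of TLR2 in sensing bacterial lipoproteins, at -0.59 (SE 0.24). Inhibitors and subunits that NF-κB itself induces had a median of -0.15 over 16 genes, with 11 below 0 and 0 of 16 at an unadjusted p under 0.05 in either direction in limma. That median turned to 0.04 after quantile normalization.

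**Figure D4:**
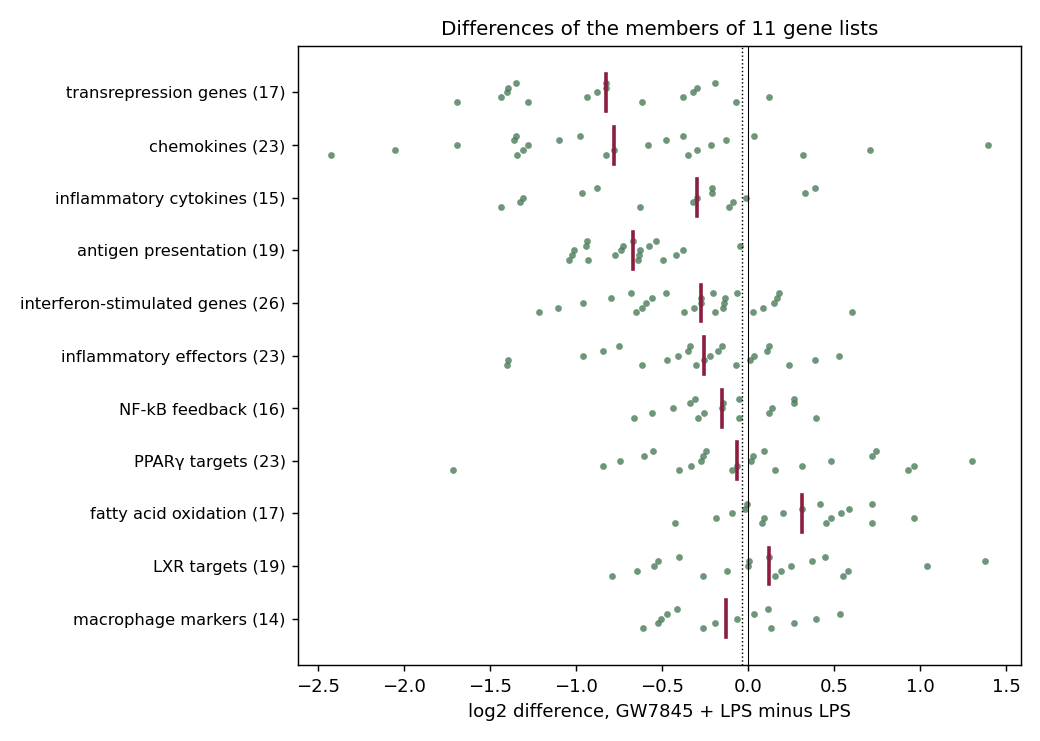
Log2 difference between GW7845 + LPS and LPS (horizontal axis) for the tested members of 11 gene lists (rows, number of members in brackets), 1 point for each gene, with the list's median as a red bar and the median of all probes, -0.04, as a dotted line. All 19 antigen presentation genes lie below 0, the transrepression and chemokine medians lie at -0.83 and -0.78, and the fatty acid oxidation median lies at 0.31.

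PPARγ's own targets lay on both sides of 0. The transcript of the receptor, Pparg, was at 4.30 and 4.47 in untreated cells and at 0.04 and 0.42 with LPS. Limma called this difference (-4.16, SE 0.33). With GW7845 it was at 0.15 and 0.04, a difference of -0.13 (SE 0.33, 95% interval -0.85 to 0.59). Over 17 nuclear receptors and coregulators tested, 10 were below 0, as were 53.4% of all probes. Their median was -0.13 (-0.08 after quantile normalization), and 0 of 17 reached an unadjusted p under 0.05 or an adjusted one in limma.

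Of 35 PPARγ target genes listed, 24 were on the array and 23 were tested, with 12 below 0 and a median of -0.07. At an unadjusted p under 0.05 there were 3 higher and 1 lower, beside 2.10% and 3.87% of all probes. After quantile normalization 13 were below 0 with a median of -0.06, and 4 were higher and 1 lower at that p. Plin2, which coats lipid droplets, was at 5.79 and 5.59 with LPS, at 6.90 and 6.34 with GW7845 and at 6.56 and 6.42 in untreated cells. Both GW7845 arrays lay above both LPS arrays, with a difference of 0.93 (SE 0.33, adjusted p = 0.75). Acaa2, a thiolase of mitochondrial fatty acid oxidation, was at 2.38 and 2.46 against 3.04 and 3.72 (difference 0.97, SE 0.34). Cd36, the scavenger receptor that takes up fatty acids and oxidised lipoprotein, was at 3.87 and 5.02 against 5.36 and 6.13 (difference 1.30, SE 0.59, adjusted p = 0.83). Untreated cells were at 3.07 and 5.58 for Cd36, so they overlapped both groups.

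Other well-known targets gave smaller or opposite values. Fabp4, the fatty acid binding protein that is the usual readout of PPARγ activity, was at 8.54 and 7.97 in untreated cells, at 6.47 and 5.97 with LPS and at 5.57 and 6.32 with GW7845. The sets had opposite signs, with -0.89 and 0.34, and the fitted difference was -0.28 (SE 0.34, 95% interval -1.01 to 0.46), or -0.02 after quantile normalization. Lpl, the lipoprotein lipase, was at 8.72 and 8.48 against 8.57 and 8.94, a difference of 0.16 (SE 0.26) that was 0.50 after quantile normalization (SE 0.23). Olr1, a receptor for oxidised lipoprotein, was 0.74 higher (SE 0.36, adjusted p = 0.83). The list's single member lower at an unadjusted p under 0.05 was Klf4, a transcription factor of myeloid cells, at 4.30 and 3.34 with LPS, 1.95 and 2.27 with GW7845 and 3.96 and 3.52 in untreated cells (difference -1.71, SE 0.34, adjusted p = 0.28). The list's median depended on single arrays: it was 0.10 without LPS 1, 0.21 without GW7845 + LPS 2 and -0.29 without GW7845 + LPS 1.

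Genes of fatty acid oxidation, the mitochondrial and peroxisomal breakdown of fatty acids, lay mostly above 0. Of all probes, 53.4% were below 0 and 2.10% were higher at an unadjusted p under 0.05. Of 17 list genes tested, 6 were higher in both sets and 1 was lower in both, beside 22.1% and 28.2% of all probes. In the fit, 12 of 17 were above 0 with a median of 0.31 (0.43 after quantile normalization), and 3 were higher at that p. Besides Acaa2 these were Acadvl, which begins the oxidation of very long chains, at 3.91 and 3.86 with LPS and 4.67 and 4.27 with GW7845 (difference 0.59, SE 0.25), and Ech1, an auxiliary isomerase, with 0.54 (SE 0.24). The difference between LPS and untreated cells, which uses the same LPS arrays, was -1.78 for Acaa2, -0.74 for Acadvl and -1.33 for Ech1. Limma called it for Acaa2 and Ech1 and not for Acadvl (adjusted p = 0.057). In both sets the GW7845 array lay between the LPS and the untreated array for these 3 genes. Without LPS 2 the list's median was 0.15, and 0 of 17 reached that unadjusted p in limma.

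The other genes of the 24 belonged to none of the lists described so far. Pou3f1, a POU-domain transcription factor, had the smallest p of the 24: it was at 1.87 and -0.25 with LPS and at -0.56 and -1.80 with GW7845, a difference of -1.99 (SE 0.36, adjusted p = 0.24). Both GW7845 arrays lay below both LPS arrays. Fgl2, a fibrinogen-like prothrombinase, was at 1.59 and 2.21 against 0.36 and 0.78 (difference -1.33, SE 0.26). Cdkn1a, the cell cycle inhibitor p21, was at 5.94 and 5.88 with LPS and at 4.02 and 4.87 with GW7845 (difference -1.46, SE 0.35). Aif1, an actin-binding protein of macrophages, differed by -1.96 (SE 0.45), with -1.39 in set A and -2.52 in set B. The LIM-homeodomain factor gene Lhx2 differed by -1.25 (SE 0.28) and the axon-guidance gene Dpysl3 by -2.0 (SE 0.41). Golga3, Dtd1, Basp1 and 1700030J22Rik completed the lower group, with values from -1.11 to -1.87.

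The 5 genes with higher values belonged to no list. Cdc42ep3, an effector of the GTPase Cdc42, was at -1.48 and -0.27 with LPS and at 0.85 and 0.85 with GW7845 (difference 1.72, SE 0.39, adjusted p = 0.41). Limma called it lower with LPS than in untreated cells, which were at 1.36 and 1.64. Pole2, a subunit of DNA polymerase epsilon, was at -1.56 and -1.33 against -0.18 and -0.03, where untreated cells were at 1.66 and 1.23. Prkar2b, a regulatory subunit of protein kinase A, differed by 1.58 (SE 0.40), Pzp, a protease inhibitor, by 2.08 (SE 0.51) and Shtn1 by 1.61 (SE 0.41).

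Outside the rule, 2 probes had smaller p-values. A probe without a gene symbol (probe 3661) was at 0.56 and -1.36 with LPS and at 2.88 and 1.90 with GW7845, a difference of 2.79 (SE 0.44, adjusted p = 0.088). Both GW7845 arrays lay above both LPS arrays, by 2.32 in set A and 3.26 in set B. Under poly(I:C) its difference was 3.05. The mean of both differences, a contrast chosen after seeing the data, was 2.92 (adjusted p = 0.002), and in that contrast limma called this probe alone of 9486 (0.0105%, all of it higher). Rgs5, a regulator of G protein signalling, differed by -2.99 (SE 0.47) with the same adjusted p, but 1 of its 4 arrays was at the floor, so the size is approximate.

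GW7845 was also given with poly(I:C), on 4 arrays that share none with the LPS comparison. There limma called 0 of 9486 probes (0%), with 359 (3.78%) at an unadjusted p under 0.05, 1.98% lower and 1.80% higher. Of the 24 genes, 21 had the same sign under both stimuli: 17 of the 19 lower and 4 of the 5 higher, where 46.7% of all probes were below 0 under poly(I:C). Over all probes the 2 sets of differences had a correlation of 0.11. Probes of one array share its scaling, so no p is given. In all, 6 of the 24 were also at an unadjusted p under 0.05 in that direction, namely Pou3f1 (-1.15), Aif1 (-1.10), Il6 (-1.06), Ccl2 (-0.94), Cxcl9 (-0.67) and Prkar2b (1.37). With GW3965 + LPS against the same LPS arrays, the 24 genes had the same signs too, for example Ccl12 (-3.65), Pou3f1 (-2.24) and Il15 (-1.44). The genes were chosen on those LPS arrays, so this follows in part from the choice. Between the agonists limma called none of the 24, so their differences are not shown to be particular to GW7845.

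For other genes the value under poly(I:C) was near 0. Il10 differed by 0.12 (SE 0.31) there, Klf4 by -0.13 (SE 0.34), Edn1 by -0.17 (SE 0.33) and Fgl2 by 0.11 (SE 0.26). The difference between the 2 stimuli was tested directly, and limma called 0 of 9486 probes (0%), with 279 (2.94%) at an unadjusted p under 0.05, among them 13 of the 24. Since the 24 were chosen by their values under LPS, a smaller value elsewhere follows in part from that choice. For the difference between stimuli, the smallest limma p-values among probes with a gene symbol were those of Rgs5, Fgl2 and Arrb1, none of them called. In Rgs5, with an array at the floor, the effects differed by -2.86 (SE 0.67, unadjusted p = 0.00077). In Fgl2 they differed by -1.44 (SE 0.37, unadjusted p = 0.0017). Arrb1 went the other way, with 2.08 (SE 0.56, unadjusted p = 0.0024). In Klf4, further down that order, the effects differed by -1.58 (SE 0.48, unadjusted p = 0.0051). Under poly(I:C), 46.7% of all probes were below 0 and 1.98% were lower at an unadjusted p under 0.05. The transrepression list had a median of -0.93 there, with 16 of 17 below 0 and 9 lower at that p. These values were -0.89, 16 and 9 after quantile normalization. Fabp4, uneven under LPS, had 0.81 (SE 0.34, unadjusted p = 0.033) under poly(I:C). Among probes with a gene symbol, the smallest p-values there, none of them called, were those of Arhgef2, a GTPase exchange factor (-1.93, SE 0.40), Il12a (-1.44, SE 0.30) and Ccl24 (-1.68, SE 0.38).

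**Figure D5:**
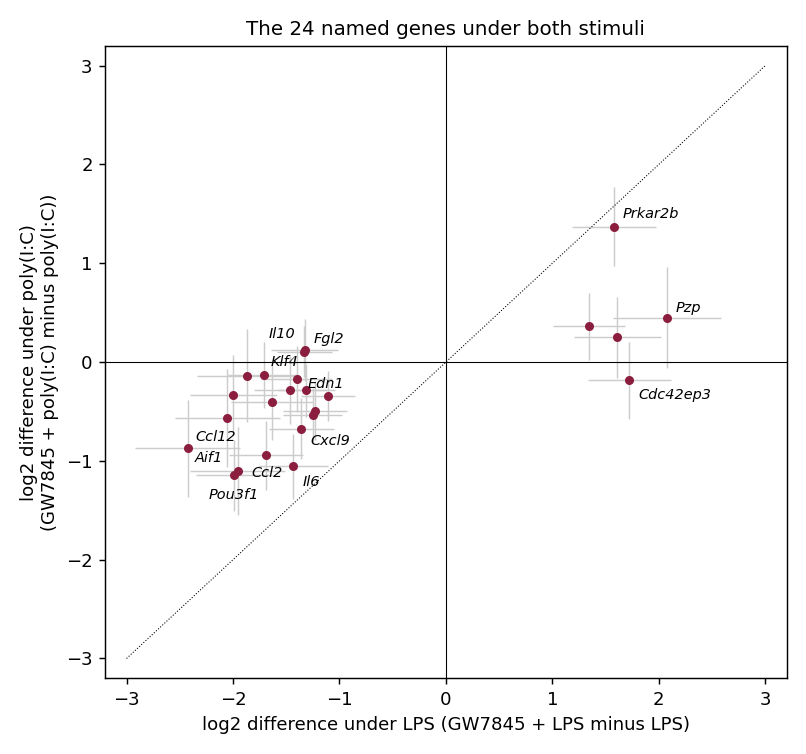
Log2 difference with GW7845 under LPS (horizontal axis) against that under poly(I:C) (vertical axis) for the 24 named genes, with bars of 1 SE and a dotted line where both would be equal. In 21 of 24 genes the signs are the same; most points lie nearer 0 on the vertical axis, and the genes were chosen by the horizontal one.

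The response to poly(I:C) gave a set of induced probes for which the LPS arrays were used only through the shared error of the fit. Limma called 10.7% of all probes higher and 8.05% lower in poly(I:C) than in untreated cells (18.8% together). Of the 909 probes that were called and at least 2-fold higher, 73.5% were lower in GW7845 + LPS than in LPS, with a median of -0.24, and the sets were alike (-0.26 and -0.25). At an unadjusted p under 0.05, 14.3% were lower and 1.21% higher, beside 3.87% and 2.10% of all probes. Without LPS 1 and without GW7845 + LPS 2 the numbers lower at that p were 52 and 59, in place of 130, while the medians were both -0.25. After quantile normalization 61.9% were below 0, with a median of -0.13. Among probes with a mean level over 4, the induced ones were below 0 in 83.3% of 269 and those neither induced nor lowered in 78.2% of 997, and after quantile normalization in 55.8% and 48.4%. Of the 665 probes called and at least 2-fold lower in poly(I:C), 40.8% were below 0 with a median of 0.09.

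The LXR agonist GW3965, given with LPS, was set against GW7845 to see which genes told the treatments apart. Both comparisons with LPS use the same LPS arrays, so only the direct contrast was tested. Limma called 6 of 9486 probes (0.0633%), 2 higher (0.0211%) and 4 lower (0.0422%) with GW7845. Leaving out arrays moved that count: it was 2 without GW3965 + LPS 1, 48 without GW3965 + LPS 2, 3 without GW7845 + LPS 1, 12 without GW7845 + LPS 2 and 17 without GW7845 + poly(I:C) 1. Cd5l, a secreted macrophage protein and a known LXR target, was at 6.00 and 5.85 with GW3965 and at 3.66 and 3.06 with GW7845, where LPS alone gave 3.60 and 3.37. The difference was -2.56 (SE 0.24, adjusted p = 0.00019), and the GW7845 arrays lay at the level of LPS alone. Eepd1, listed as an LXR target, was at 3.99 and 4.03 against 1.85 and 2.05 (-2.06, SE 0.26), and Mid1ip1, a regulator of lipid synthesis, differed by -1.64 (SE 0.25). Slfn4, an interferon-induced gene of myeloid cells, was at 1.97 and 2.37 with GW3965 and at 4.52 and 4.28 with GW7845, close to the 4.55 and 4.80 of LPS (2.23, SE 0.29, adjusted p = 0.00455). The other 2 were probes without a symbol, probe 3661 (4.71, SE 0.44) and probe 4796 (-1.44, SE 0.23).

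Of the 19 LXR targets tested, 18 were lower with GW7845 than with GW3965, with a median of -1.33 (-1.23 after quantile normalization), and 15 were lower at an unadjusted p under 0.05, as were 3.12% of all probes (5.98% in both directions together). The list was written with earlier results of these data known, so these counts are a description. Against LPS the same 19 had a median of 0.12 with GW7845 (0.20 after quantile normalization) and of 1.58 with GW3965, both from the same LPS arrays. Abca1, the cholesterol exporter, differed from LPS by -0.003 with GW7845 (SE 0.46, 95% interval -0.99 to 0.98). Of 26 interferon-stimulated genes, 23 were higher with GW7845 than with GW3965, with a median of 0.36 (0.40 after quantile normalization), where 42.8% of all probes were higher. The transrepression list had a median of -0.04 in that contrast, with 9 of 17 below 0, and of 0.06 after quantile normalization. At an unadjusted p under 0.05 in limma, 1 of these 17 was higher and 0 were lower, beside 5.98% of all probes in both directions together. A median near 0 does not show that both agonists act alike. In Nos2 the difference between them was 0.30 (SE 0.36), smaller than its SE. In Cxcl10, named after its value was seen, it was 1.30 (SE 0.38).

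Markers of other cells that thioglycollate exudates can hold were read on the same 4 arrays. Summed linear intensity over 14 B-cell markers was 73.4 with LPS and 54.8 with GW7845 in set A, and 66.0 and 58.5 in set B. For 18 markers of T and natural killer cells it was 117 and 97.0, then 88.4 and 71.9, and for 9 dendritic cell markers 72.3 and 46.2, then 53.7 and 44.5. For 10 neutrophil markers it was 51.2 and 38.1, then 38.4 and 42.6, for 11 eosinophil and mast cell markers 18.2 and 15, then 16 and 19.8, and for 15 mesothelial and fibroblast markers 332 and 330, then 256 and 213. The 14 macrophage markers themselves summed to 3310 and 2060, then 2070 and 1900. No marker in these sums was at the floor on all 4 arrays. The sums hold only tested probes, so markers too dim for the filter had been left out beforehand. On at least 1 of the 4 arrays, 3 T and natural killer, 2 neutrophil, 2 mesothelial and fibroblast, and 1 eosinophil and mast cell markers were at the floor. The macrophage, B-cell, T and natural killer, dendritic and mesothelial sums were lower with GW7845 in both sets. Of the 19 antigen presentation genes, 17 were lower in both sets, as were 28.2% of all probes. The part of other cells in those values was not tested. These sums are of intensities as deposited and weigh bright probes most. The median difference over the macrophage markers was -0.13 and turned to 0.10 after quantile normalization, with 6 of 14 below 0. For the mesothelial and fibroblast markers it went from -0.13 to -0.001, and for the B-cell, the T and natural killer, and the dendritic markers it was -0.20, -0.28 and -0.30 after that normalization. In bulk RNA, fewer cells of a type and less RNA for each cell cannot be told apart.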

How the data were processed

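RNA of 14 preparations was measured on one-colour microarrays. The authors deposited 1 linear intensity for each probe, scaled so that array medians are about 1; the sources used here do not name the scanner, the background correction or the scaling method. Of 10012 probes, 8983 had 1 gene symbol in the platform annotation, 1 had several and 1028 had none. Intensities below 0.06861 (the 5th percentile of positive values) were set to that floor and log2 was taken. A probe was tested if at least 2 of 14 arrays exceeded their own 20th percentile and all arrays held a value, which kept 9486 probes; 98 of those left out passed the first criterion and lacked a value.

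One limma fit (version 3.58.1, R 4.3.3) covered all 14 arrays, with group means, the array set as a block (6 residual degrees of freedom) and an intensity trend. P-values were adjusted by Benjamini-Hochberg over 9486 probes and called under 0.05, and the script was tested on simulated data. Arrays were paired by array set. Deviations of LPS and GW7845 + LPS from their means correlated at 0.416 by set, and pairs of groups at 0.354 to 0.674. The value by title number, -0.416, is the same correlation with its sign reversed, since the title numbers cross the sets. The sets were read from the same intensities, so these correlations cannot test the pairing. No label names the sets.

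The genes named are the 24 smallest p-values with 1 symbol, the same sign in both sets and no array of the 4 at the floor, then list members, and the leading probes of the other contrasts. The members and lists were chosen with earlier results of these data known. Ccl5, Cxcl1 and other list members are named as examples chosen after their values were seen. Alternatives covered the block, floor, filter, normalization, variance model and arrays in the fit. Single arrays were also left out in turn: those of each tested contrast, and GW7845 + poly(I:C) 1. The untreated and the GW3965 + poly(I:C) arrays, which share the error estimate, were never left out. Promoters and gene symbols came from RefSeq tables (GRCm38.p6). The number of arrays limits the precision.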

Additional observations from a re-analysis of the deposited data

How the results depend on the processing

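The title numbers cross the array sets. With the replicate block by title number in place of the set, 0 probes were called for GW7845 + LPS against LPS, 4 against GW3965 + LPS and 0 for both stimuli together, with 265 at an unadjusted p under 0.05 in the first of these, and with no block there were 137. In limma, GW7845 + LPS against LPS gave 0 calls under every alternative that kept all its arrays, and 0 to 3 with one array left out (2 without LPS 1, 3 without GW7845 + LPS 2). The poly(I:C) comparison gave 1 call with an offset in place of the floor and 0 to 101 with one array left out, the difference between stimuli 0 to 40, both highest without GW7845 + poly(I:C) 2. Against GW3965 + LPS the 6 calls became 1 with no array-set block, 11 with the floor at the 10th percentile, 10 with the filter at the 50th, 14 after quantile normalization, 2 with no intensity trend, 11 with robust variance and 2 to 48 with one array left out. The mean over both stimuli, a contrast chosen after seeing the data, gave 1 call, 0 with no array-set block, and 1 to 64 with one array left out. Where an array is left out, the lone array of its group is assumed to vary like the others. Of 1580 values for 88 named genes under 18 alternatives, 24 in 15 genes changed sign, none of them called. After quantile normalization these were Cd5l 0.00018, Mmp9 0.0086, Msr1 0.0904, Il1b 0.16, Ifit1 0.25, Cd14 0.12, Abca1 0.027. With one array left out, the differences ranged for Cd5l -0.27 to 0.021, Slfn4 -0.57 to 0.021, Fabp4 -0.76 to 0.21, Lpl -0.14 to 0.46, Pparg -0.43 to 0.18, Mmp9 -0.82 to 0.68, Tnf -0.71 to 0.069, Il1b -0.63 to 0.0400, Ptgs2 -1.35 to 0.12, Csf2 -1.26 to 0.0088, Ifit1 -0.40 to 0.28, Abca1 -0.62 to 0.61, Adgre1 -0.029 to 0.57. The fits on 8 and on 4 arrays have no GW3965 value. With 2 arrays in a group and a median SE of 0.39, and with bright probes lower in set A, small differences cannot be separated from error here; the cause of the moves was not tested.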

Other observations

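Genes of other processes were read in the same comparison and gave no calls in limma. For 2 lists the sign of the median difference turned with the scaling. Over 25 lysosomal genes it was -0.18 (17 below 0) and 0.10 after quantile normalization (9 below 0), and over 20 genes of glycolysis and the hypoxia response it was -0.12 (11 below 0) and 0.03 (10 below 0). Over 25 cell cycle genes it was -0.20 (17 below 0) and -0.09 (16 below 0), and over 16 genes of alternative activation -0.29 (12 below 0) and -0.20 (11 below 0). Over 12 genes of sterol synthesis it was 0.22 (3 below 0) and 0.39 (2 below 0), and over 13 heat shock genes 0.15 (4 below 0) and 0.37 (1 below 0). The median of all probes was -0.04 (53.4% below 0), and 0.01 (49.2% below 0) after quantile normalization.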
